A study of Mus musculus with 67 samples.

Results

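The comparison is of time-restricted with ad libitum feeding in the liver of Cry1 and Cry2 double knockout mice (labelled CryDKO) during the light phase. It takes the libraries of zeitgeber time (ZT, hours after lights on) 3, 6 and 9, which gives 6 of the 67 libraries: 3 restricted and 3 ad libitum, 1 library per feeding and time. All of these mice were C57BL/6, aged 24 weeks, and had been on a high fat diet for 12 weeks, so the ad libitum mice carry the same diet and the same 2 deletions. PolyA RNA of whole liver was sequenced with a stranded kit. The genotype label names no tissue for the deletions, whereas the other knockouts of the series are labelled as liver knockouts, and the hours of food access are not given in the sources used here. Nothing in the labels says whether the libraries of a group came from separate animals or pools, so p-values measure the spread between these libraries.

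CRY1 and CRY2 are the repressors that close the circadian feedback loop: they bind the activators CLOCK and BMAL1 and switch off the genes those activators drive, among them the Per genes and Cry1 itself. CRY proteins also restrain the glucocorticoid receptor and glucagon signalling in liver. During a fast the liver shifts from fat synthesis towards fat oxidation and glucose output, and in nocturnal animals such as mice the light phase is the usual time of fasting. Hepatocytes also make the acute-phase proteins, plasma proteins that climb in inflammation under interleukin 6, STAT3 and C/EBP factors.

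Cry1 was at 10.6, 9.28 and 7.31 FPKM (fragments per kilobase of gene, scaled to library size) in the restricted libraries of ZT3, 6 and 9, against 10.1, 10.4 and 8.82 FPKM in the ad libitum ones. Cry2 was at 2.82, 2.29 and 2.73 FPKM in restricted and 3.52, 3.15 and 2.18 FPKM in ad libitum libraries. Over all 16 CryDKO libraries Cry1 was at 6.65 to 14.3 FPKM, against 1.66 to 23.0 FPKM in 23 WT libraries. FPKM is summed over the whole gene and no label tells which exons were removed, so these levels do not check the deletion, and directions below are those of libraries labelled CryDKO. Hepatocyte markers fit the labelled tissue, with Alb (albumin) at 40660 to 66750 FPKM in restricted and 47610 to 50431 FPKM in ad libitum libraries. In bulk tissue, fewer cells of a type and less RNA per cell cannot be told apart.

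Differences below are restricted minus ad libitum on the log2(FPKM + 1) scale, which understates the change of low genes, with the standard error of a limma fit over the 16 CryDKO libraries. Of the 9958 genes tested, those averaging 1 FPKM or more over the series, 0 passed an adjusted p of 0.05 (Benjamini-Hochberg; percent called 0), and the smallest adjusted p was 0.394. The unadjusted p was under 0.05 for 1142 genes (11.5%), 684 of them higher in the restricted libraries (6.87%) and 458 lower (4.6%). The 3 restricted values did not overlap the 3 ad libitum values for 1772 genes (17.8%), of which 1157 were higher (11.6%) and 615 lower (6.18%). The difference was above 0 for 59.4% of all genes and below 0 for 40.6%, a split in which the share above 0 was 27.6% when each library was scaled to the same sum of FPKM, and the median over all genes was 0.05 as deposited and -0.13 with that scaling. Restricted ZT3 had the largest sum, 642932 FPKM, against 420992 to 462631 FPKM in the other libraries. The share above 0 was 52.3% with median-of-ratios scaling and 49.8% with a correction for GC content and length. With all 67 libraries sharing 1 estimate of the spread, limma called 20 of 9958 genes (0.201%), 5 higher and 15 lower. Most of those libraries are of other genotypes, so this estimate need not match the spread of the restricted libraries here. Counts of genes in the lists below are given with these shares as their background, and no member of any list is called in the fit of the 16 libraries.

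The 3 restricted libraries stood apart from one another. The SD over 3 libraries, median over genes, was 0.24 in restricted and 0.11 in ad libitum libraries on the log2 scale, and it was larger in restricted for 8159 of 9958 genes. Each ad libitum pair correlated at Pearson's r = 0.99 over genes, while restricted ZT3 correlated with the other 5 libraries at 0.893 to 0.906 (genes are not independent replicates). Restricted ZT3 had 149 genes at least 2 log2 units above the ad libitum mean and 112 at least that far below; restricted ZT6 had 31 and 14, and restricted ZT9 had 38 and 5. With 1 library per feeding and time, time of day, animal and library cannot be told apart. Depth overlapped between the groups, with 24.2 to 29.1 M (mega) reads recovered from the FPKM steps in restricted libraries and 21.5 to 27.8 M reads in ad libitum ones. The slope of expression on GC content was 0.088 to 0.196 log2 units per 10 percentage points in restricted and -0.052 to 0.092 in ad libitum libraries. Correcting for GC content and length left 0 of 9581 genes called and 962 at an unadjusted p under 0.05.

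Restricted ZT3 held a full acute-phase profile. All 24 genes of the acute-phase list were highest in this library, which was the highest for 45.7% of all genes. Their FPKM summed to 255613, or 39.8% of the library's total, against 15172 (3.6%) in restricted ZT6, 30169 (6.5%) in restricted ZT9 and 12045 to 13777 (2.9 to 3.1%) in the ad libitum libraries. The list's median difference was 1.65, against 0.05 over all genes, and 0.58 without restricted ZT3. Of the 24 genes, 14 had an unadjusted p under 0.05, all higher (background 6.87%). For 10 of the 24 the groups did not overlap, all higher (background 11.6%). The promoters of 4 of these genes are printed because they carry the C/EBP-type motif TTNNGCAA, read on both strands and set in capitals. They run from 250 bases before to 50 after the RefSeq start on GRCm38.p6: Saa1 at chr7:46742931-46743230 on the minus strand, Saa2 at chr7:46751583-46751882 on the plus strand, Lcn2 at chr2:32387690-32387989 on the minus strand and Orm2 at chr4:63362199-63362498 on the plus strand.
Saa1: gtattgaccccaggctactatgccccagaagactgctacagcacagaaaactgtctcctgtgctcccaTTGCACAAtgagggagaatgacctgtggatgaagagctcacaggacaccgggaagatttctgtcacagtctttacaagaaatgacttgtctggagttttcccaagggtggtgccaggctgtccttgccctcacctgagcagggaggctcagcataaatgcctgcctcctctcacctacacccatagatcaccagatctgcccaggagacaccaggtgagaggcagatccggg
Saa2: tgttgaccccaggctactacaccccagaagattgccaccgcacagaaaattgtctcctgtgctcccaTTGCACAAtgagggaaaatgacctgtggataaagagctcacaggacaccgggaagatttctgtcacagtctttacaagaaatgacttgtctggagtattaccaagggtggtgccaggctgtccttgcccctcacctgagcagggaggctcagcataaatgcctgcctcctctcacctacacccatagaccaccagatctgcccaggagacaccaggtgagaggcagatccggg
Lcn2: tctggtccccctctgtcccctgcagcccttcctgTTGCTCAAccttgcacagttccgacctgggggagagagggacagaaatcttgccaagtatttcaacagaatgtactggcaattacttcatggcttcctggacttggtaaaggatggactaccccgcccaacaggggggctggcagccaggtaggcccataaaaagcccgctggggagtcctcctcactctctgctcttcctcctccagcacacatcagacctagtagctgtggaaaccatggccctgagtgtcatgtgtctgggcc
Orm2: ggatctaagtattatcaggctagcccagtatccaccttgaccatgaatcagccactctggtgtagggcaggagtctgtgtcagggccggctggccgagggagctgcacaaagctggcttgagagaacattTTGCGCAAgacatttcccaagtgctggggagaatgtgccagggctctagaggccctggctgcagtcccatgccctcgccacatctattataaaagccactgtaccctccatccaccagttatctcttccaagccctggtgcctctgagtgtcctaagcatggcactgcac
Of the 22 acute-phase genes with a promoter in the table, 13 (59.1%) held this motif, against 12.2% of 27025 genes, and 6 (27.3%) held the STAT-type motif TTCNNNGAA, against 9.55%; of 13 glucocorticoid receptor targets 4 (30.8%) held the STAT-type motif. A match is a description of the letters, not of binding; 4 motifs were searched.

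Saa1 and Saa2 encode serum amyloid A, the lipoprotein-borne acute-phase proteins. Saa1 was at 41908, 81.6 and 3147 FPKM in restricted ZT3, 6 and 9, against 41.6, 44.0 and 64.1 FPKM in the ad libitum libraries, a difference of 5.47 ± 1.88 (SE; unadjusted p = 0.0147, limma adjusted p = 0.400). Saa2 was at 45104, 34.7 and 2661 FPKM in restricted and 17.9, 20.1 and 25.7 FPKM in ad libitum libraries. For both genes all restricted values lay above all ad libitum ones, yet the restricted values were far apart, with ZT3 far above ZT9 and ZT6 near the ad libitum level. Their reads may be shared, since the 2 genes are near-identical copies. Lcn2, the iron-scavenging lipocalin, was at 3292, 4.39 and 154 FPKM in restricted and 1.27, 2.44 and 1.68 FPKM in ad libitum libraries, and it is 1 of the 20 genes called with all 67 libraries in the fit (limma, 5.67 ± 1.31, adjusted p = 0.0486).

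The same order, ZT3 then ZT9 then ZT6, held for several bulk plasma proteins, though Fga and Socs3 below had ZT6 above ZT9. Haptoglobin (Hp), which binds free haemoglobin, was at 24779, 2494 and 5410 FPKM in restricted and 2412, 2234 and 2516 FPKM in ad libitum libraries. Hemopexin (Hpx), its haem-binding counterpart, was at 36512, 3737 and 7154 FPKM against 2924, 2563 and 2787 FPKM. The fibrinogen chains Fgb and Fgg kept this order too, with all restricted values above all ad libitum ones but ZT6 and ZT9 close to them: Fgb was at 9311, 1534 and 1613 FPKM in restricted and 1391, 1308 and 1507 FPKM in ad libitum libraries. The third chain, Fga, overlapped between groups, at 16790, 2261 and 1990 FPKM in restricted and 1845, 1703 and 1997 FPKM in ad libitum libraries. The pathway's own inhibitor Socs3 was at 52.6, 3.77 and 2.67 FPKM in restricted libraries and 1.46, 2.38 and 1.90 FPKM in ad libitum ones. Outside the list, Nnmt, which methylates nicotinamide, was at 281, 4.56 and 14.01 FPKM in restricted and 0.79, 1.43 and 0.36 FPKM in ad libitum libraries, a difference called with all 67 libraries in the fit (3.98 ± 0.82, limma adjusted p = 0.0187).

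Markers of other cells moved with restricted ZT3. The 10 neutrophil markers summed to 80.1 FPKM there, against 2.2 and 2.6 in the other restricted and 2.9 to 3.5 in the ad libitum libraries, with S100a9 at 44.7 FPKM and S100a8 at 23.4 FPKM but the granule gene Mpo at 0.04 and Camp at 0.08 FPKM. Of the immune markers, the scavenger receptor Marco was at 20.8, 10.3 and 9.35 FPKM in restricted and 4.91, 3.76 and 4.41 FPKM in ad libitum libraries. The class II gene H2-Aa ran the other way, at 3.85, 6.86 and 9.97 FPKM in restricted and 12.3, 14.8 and 10.4 FPKM in ad libitum libraries. The 17 immune markers together summed to 406 to 484 FPKM in restricted and 355 to 423 FPKM in ad libitum libraries. The part of these cells in the acute-phase values was not tested. ER chaperones and folding enzymes were also highest in restricted ZT3 for 16 of 18 genes (45.7% of all genes), with Calr (calreticulin) at 585, 346 and 246 FPKM in restricted and 236, 165 and 252 FPKM in ad libitum libraries. The median of that list was 0.55, and 0.20 without restricted ZT3.

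**Figure D1:**
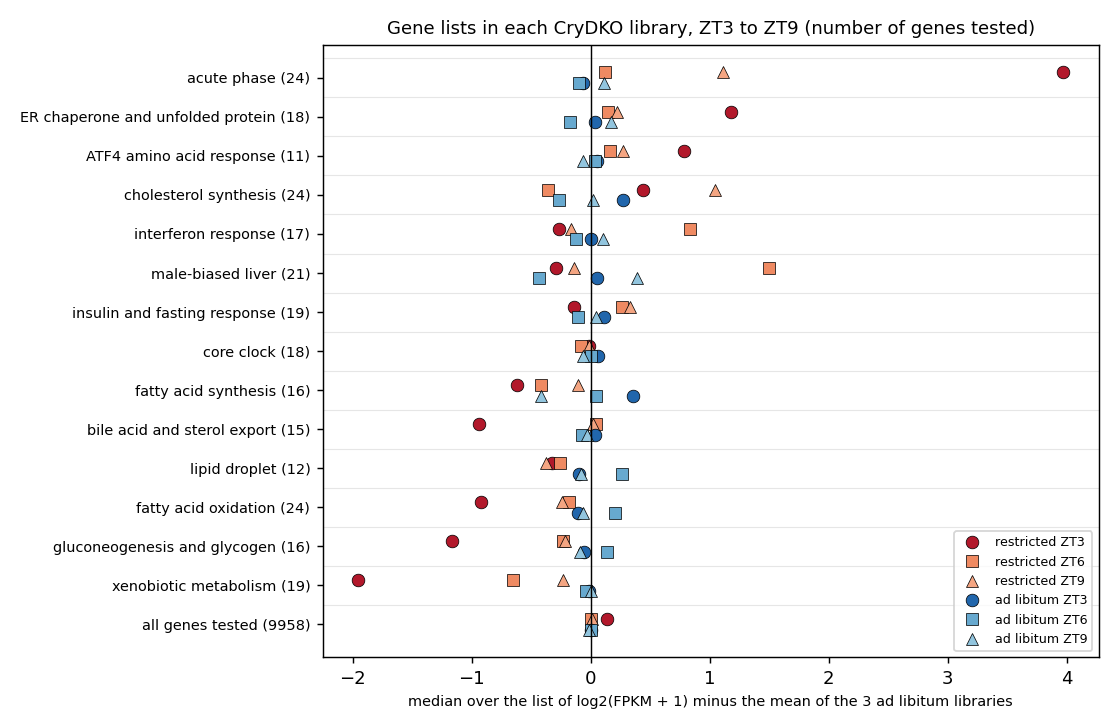
Median log2 difference of each gene list in each of the 6 libraries from the mean of the 3 ad libitum libraries (horizontal axis); lists run down the page with the number of genes tested. Restricted ZT3 lies at 3.97 for the acute-phase list and -1.95 for the xenobiotic list, restricted ZT6 at 1.49 for male-biased genes, and restricted ZT9 at 1.04 for cholesterol synthesis.

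Restricted ZT6 was set apart by male-biased and interferon genes. Of 19 male-biased genes with 6 distinct values, 14 were highest in restricted ZT6, and 16 of 17 interferon response genes were; over all genes this library was highest for 12.4%. Mup17, a urinary pheromone carrier of a family whose near-identical copies may share reads, was at 566, 3310 and 165 FPKM in restricted and 67.8, 20.4 and 47.0 FPKM in ad libitum libraries, with no overlap (4.04 ± 1.88, unadjusted p = 0.0561). Elovl3, a very long chain fatty acid elongase, was at 1.05, 461 and 18.9 FPKM in restricted and 480, 250 and 355 FPKM in ad libitum libraries, so restricted ZT6 lay within the ad libitum range and the other 2 far under it. Irf7, a master factor of the interferon response, was at 5.47, 35.4 and 7.20 FPKM in restricted and 9.61, 6.47 and 9.39 FPKM in ad libitum libraries. Stellate markers were lowest in this library for 10 of 11 genes, as were 1641 of 9913 genes in all, with the retinol-esterifying enzyme Lrat at 10.6, 1.13 and 4.46 FPKM in restricted and 4.63, 4.0 and 3.93 FPKM in ad libitum libraries. Serpina1e, a protease inhibitor of the male-biased list, was high in all 3 restricted libraries, at 9454, 8953 and 8877 FPKM, against 4302, 1257 and 4721 FPKM in the ad libitum ones (1.63 ± 0.52, unadjusted p = 0.0103).

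Restricted ZT9 was set apart by pancreatic enzyme genes and by cholesterol synthesis. The 14 pancreas markers summed to 1992 FPKM in this library, against 18.4 and 64.0 in the other restricted and 44.8 to 55.2 in the ad libitum libraries, where most of the sum is Cela1. Ctrb1 (chymotrypsinogen) was at 484 FPKM and Pnlip (pancreatic lipase) at 311 FPKM in restricted ZT9, and neither passed 0.27 FPKM in the other 5 libraries. The pancreas list's median was 2.25 and 0.04 without this library. Of 24 cholesterol synthesis genes, 20 were highest in restricted ZT9, against 15% of all genes. Hmgcs1, which makes the pathway's first committed precursor, was at 210, 42.0 and 338 FPKM in restricted and 74.9, 41.2 and 68.5 FPKM in ad libitum libraries, so the groups overlapped. The list's median was 0.34, with 21 of 24 differences above 0 and none of the genes apart between groups; it was 0.06 without restricted ZT9 and 0.71 without restricted ZT6. The part of the pancreatic RNA in these values was not tested.

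**Figure D2:**
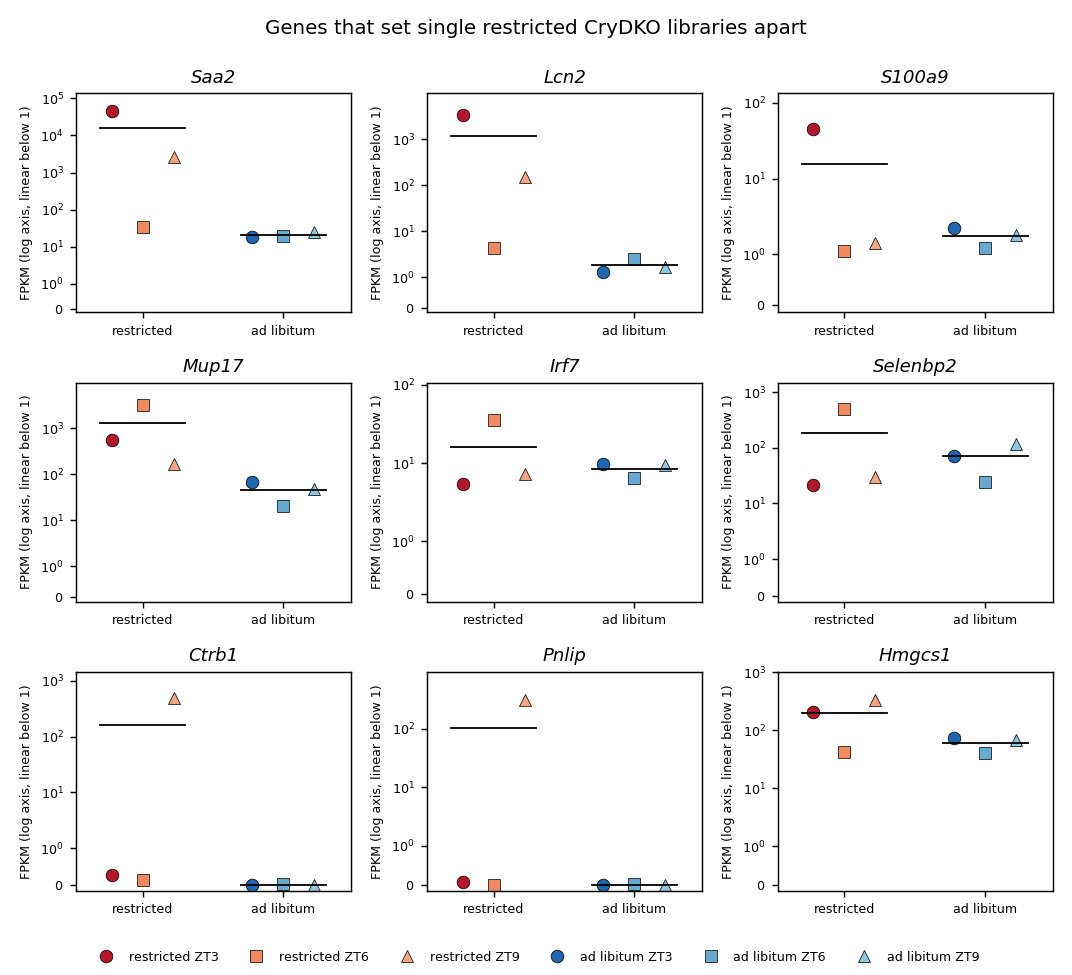
FPKM of 9 genes in each library on a log axis that is linear below 1; lines are means of 3. Saa2, Lcn2 and S100a9 are highest in restricted ZT3, Mup17, Irf7 and Selenbp2 in restricted ZT6, and Ctrb1, Pnlip and Hmgcs1 in restricted ZT9.

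Against this spread, some genes held 1 direction in all 3 restricted libraries. Those below were taken by the smallest p of this same contrast. That choice favours groups that do not overlap and steady values on leaving out 1 library, so neither is a separate result. The smallest p among genes of at least 5 FPKM was that of Slc39a4, the zinc importer ZIP4, at 13.4, 10.3 and 16.6 FPKM in restricted and 4.94, 4.02 and 3.68 FPKM in ad libitum libraries (1.45 ± 0.25; unadjusted p = 0.000155, limma adjusted p = 0.394). Leaving out any 1 library gave 1.30 to 1.62. Apoa4, an apolipoprotein of triglyceride-rich particles, was at 2108, 1249 and 688 FPKM in restricted and 195, 361 and 282 FPKM in ad libitum libraries (2.17 ± 0.45; 1.77 to 2.58 on leaving out 1 library). Every restricted value of Apoa4 exceeded every ad libitum value, and the restricted values were lower at later times. Plin3, a lipid droplet coat protein, was at 21.9, 19.8 and 22.7 FPKM in restricted and 12.7, 14.4 and 12.8 FPKM in ad libitum libraries (0.65 ± 0.14). The other 9 of the 12 higher genes with the smallest p ran from 0.38 (Ifnar1, a type I interferon receptor chain) to 0.97 (Plxnb1, a semaphorin receptor). They include Ccbl1, a kynurenine aminotransferase, at 65.9, 40.7 and 57.6 FPKM in restricted and 32.2, 22.9 and 26.6 FPKM in ad libitum libraries. Rplp2, H2afj, Tnpo2, Ap2a1, Ppp1r14a and Cope complete this set.

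Among the 12 lower genes with the smallest p the widest gap was that of Acaa1b, a peroxisomal thiolase of fatty acid oxidation. It was at 15.6, 136 and 69.2 FPKM in restricted and 372, 442 and 281 FPKM in ad libitum libraries (-2.73 ± 0.60; -3.40 to -1.88 on leaving out 1 library), and it was called with all 67 libraries in the fit (limma adjusted p = 0.0187). Its close copy Acaa1a, and pseudogenes of Rplp2, may share reads with them. Glo1, which detoxifies methylglyoxal, was at 168, 117 and 92.1 FPKM in restricted and 218, 257 and 285 FPKM in ad libitum libraries. Glo1 was also among the 20 called with all 67 libraries (limma, -1.04 ± 0.20, adjusted p = 0.0187). Hsdl2, a peroxisomal dehydrogenase-like protein, was at 27.5, 27.3 and 27.1 FPKM in restricted and 33.6, 40.5 and 38.5 FPKM in ad libitum libraries (-0.44 ± 0.10). Slc1a2, a glutamate transporter, was at 2.91, 3.43 and 4.12 FPKM in restricted and 5.91, 7.52 and 7.31 FPKM in ad libitum libraries. Parp16, Sar1b, Rtn4, Slc35d2, Rps27l, Fitm1 and Fam107b were also among the 12, from -1.87 (Fitm1) to -0.49 (Rps27l).

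**Figure D3:**
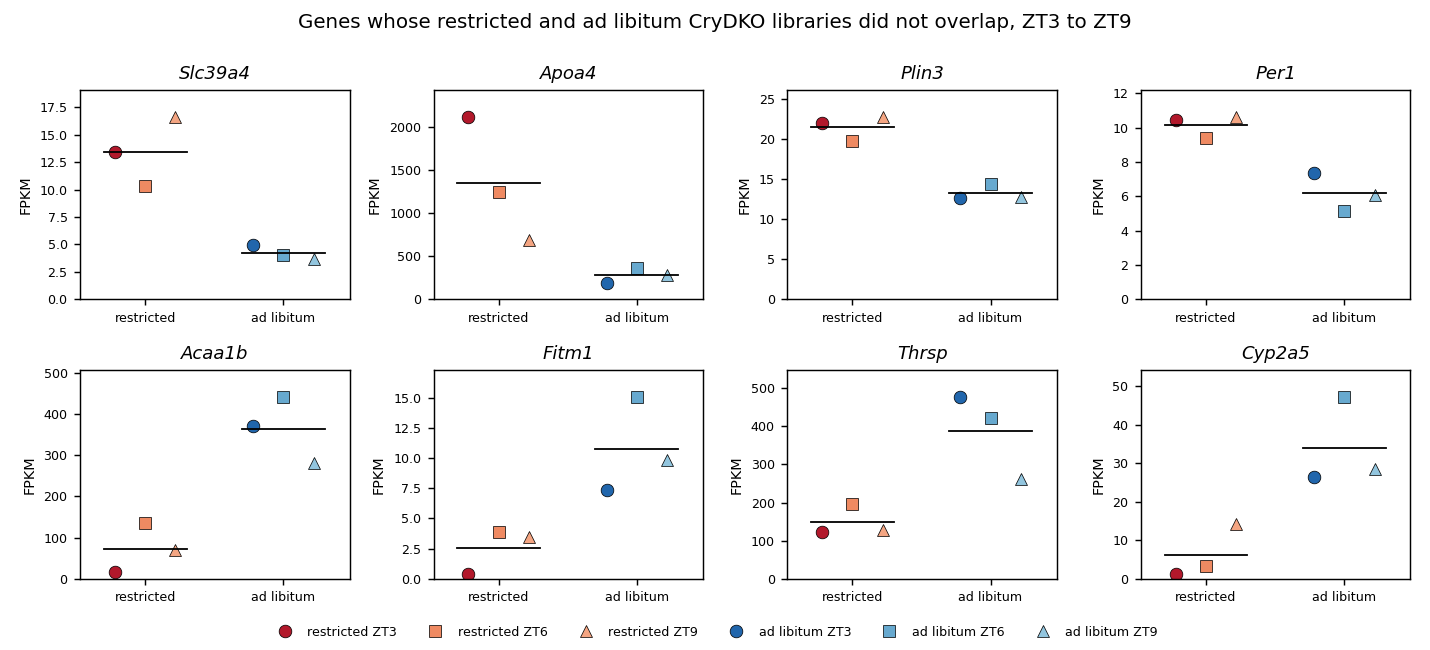
FPKM of 8 genes in each library on a linear axis from 0; lines are means of 3. All restricted values of Slc39a4, Apoa4, Plin3 and Per1 lie above the ad libitum values, and all those of Acaa1b, Fitm1, Thrsp and Cyp2a5 below. The genes shown are among the 17.8% whose groups did not overlap, so their separation is no separate result.

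Fat oxidation genes, targets of the fasting receptor PPAR alpha, ran lower in the restricted libraries. Of 24 genes 22 had a difference below 0 and 2 above, 9 had an unadjusted p under 0.05, all lower (background 4.6%), and 9 were apart between groups, all lower (background 6.18%). The median was -0.43, and -0.27 without restricted ZT3, which was the lowest library for 19 of the 24 and for 2525 of 9913 genes in all. Ad libitum ZT6 was the highest library for 15 of the 24 and for 994 of the 9913. The acyl-CoA thioesterase Acot1 was at 0.85, 4.06 and 10.4 FPKM in restricted and 11.9, 20.96 and 17.8 FPKM in ad libitum libraries (-1.88 ± 0.60). Fgf21, a fasting hormone, was at 0.39, 0.34 and 1.40 FPKM in restricted and 1.81, 2.64 and 1.78 FPKM in ad libitum libraries. The omega-hydroxylase Cyp4a14 did not follow, at 35.0, 261 and 607 FPKM in restricted and 94.5, 273 and 110 FPKM in ad libitum libraries. Ppara itself overlapped between groups, at 19.5, 35.5 and 35.4 FPKM in restricted and 34.4, 34.9 and 28.3 FPKM in ad libitum libraries.

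Lipid droplet genes gave a median of -0.41, with 10 of 12 below 0 and 5 apart and lower (background 6.18%). This median was -0.45 to -0.33 on leaving out a restricted library and -0.27 without ad libitum ZT6. G0s2, an inhibitor of the lipase encoded by Pnpla2, was at 11.4, 6.45 and 32.9 FPKM in restricted and 41.8, 74.1 and 64.5 FPKM in ad libitum libraries (-2.02 ± 0.65). Pnpla2 itself was at 22.8, 24.5 and 22.9 FPKM in restricted and 16.2, 19.8 and 16.02 FPKM in ad libitum libraries, with no overlap in the other direction. Fitm1, which buds lipid droplets from the ER, was at 0.37, 3.87 and 3.50 FPKM in restricted and 7.34, 15.1 and 9.88 FPKM in ad libitum libraries. Plin5, the droplet protein of oxidising tissues, was at 9.36, 13.9 and 14.4 FPKM against 19.7, 25.5 and 17.3 FPKM. Plin3 ran opposite to these, as given above.

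Fatty acid synthesis genes gave a median of -0.26, with 14 of 16 below 0, and -0.59 without restricted ZT9 or without ad libitum ZT9. Without restricted ZT6 it was -0.34, with 6 genes above 0 and 10 below. Against the ad libitum mean, the list's median was -0.11 in restricted ZT9 and -0.42 in ad libitum ZT9. Thrsp, a regulator of lipogenesis, was at 122, 197 and 127 FPKM in restricted and 477, 420 and 262 FPKM in ad libitum libraries (-1.36 ± 0.42). The elongase Elovl5 was at 118, 147 and 95.1 FPKM in restricted and 278, 296 and 194 FPKM in ad libitum libraries (-1.08 ± 0.28), and the desaturase Scd1 at 274, 76.5 and 272 FPKM against 639, 894 and 309 FPKM. These 3 of the 16 genes were apart and lower (background 6.18%). The core synthase Fasn overlapped, at 26.8, 18.2 and 67.6 FPKM in restricted and 63.1, 38.2 and 22.6 FPKM in ad libitum libraries. In the ad libitum libraries Fasn was lower at each later time, whereas restricted ZT9 held the highest of the 6 values. The list's sum was 1196 ± 200 FPKM in restricted and 2258 ± 641 FPKM in ad libitum libraries (SD, n = 3 each; exact permutation test, two-sided, p = 0.1, the smallest that 3 against 3 allows). That test also gave 0.1 for the lipid droplet, acute-phase, xenobiotic, ATF4 and glucocorticoid receptor target sums. It gave 0.3 for fat oxidation, 0.4 for glucose, 0.5 for cholesterol synthesis and 0.8 for core clock sums. These p-values were not adjusted for the number of lists.

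Glucose genes gave a median of -0.47 with 14 of 16 below 0 and 6 apart and lower (background 6.18%), and -0.25 without restricted ZT3. G6pc, the last step of glucose output, was at 19.6, 65.1 and 36.9 FPKM in restricted and 68.2, 93.8 and 85.4 FPKM in ad libitum libraries (-1.15 ± 0.46). Pck1, the gluconeogenic carboxykinase, lay on the other side, at 207, 700 and 223 FPKM in restricted and 176, 176 and 180 FPKM in ad libitum libraries (0.84 ± 0.47). The glycogen targeting subunit Ppp1r3c was at 13.4, 17.0 and 34.3 FPKM in restricted and 53.7, 50.3 and 35.4 FPKM in ad libitum libraries. Both G6pc and Ppp1r3c lay lower and apart, and Pck1 higher and apart. The insulin receptor substrate Irs2 was at 4.31, 1.44 and 2.02 FPKM in restricted and 1.25, 1.04 and 0.62 FPKM in ad libitum libraries, while Irs1 was at 0.81, 1.76 and 2.12 FPKM against 2.84, 2.27 and 2.69 FPKM. Igfbp1, a fasting-induced binding protein, was at 188, 16.5 and 29.2 FPKM in restricted and 17.6, 9.88 and 6.38 FPKM in ad libitum libraries, so restricted ZT6 overlapped.

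Xenobiotic genes showed the largest negative median of the pathway lists, at -1.02, with 17 of 19 below 0. Of the 19, 9 had an unadjusted p under 0.05 and 9 were apart, all lower (backgrounds 4.6% and 6.18%). The median was -0.43 without restricted ZT3, which was the lowest library for 18 of the 19, against the same 2525 of 9913 genes. Cyp2a5 (coumarin hydroxylase) was at 1.25, 3.44 and 14.2 FPKM in restricted and 26.3, 47.2 and 28.4 FPKM in ad libitum libraries (-2.66 ± 0.68). Cyp3a11, the main drug oxidase of the PXR receptor's targets, was at 111, 409 and 350 FPKM in restricted and 665, 839 and 870 FPKM in ad libitum libraries. The carboxylesterase Ces1d was at 144, 498 and 578 FPKM against 1052, 1079 and 1062 FPKM. Of the receptors, PXR (Nr1i2) was apart and lower at 15.2, 24.1 and 17.6 FPKM against 30.6, 24.7 and 26.5 FPKM. In the bile acid and sterol list Slco1b2, an uptake transporter, was apart and lower (-0.78) and Abca1, a cholesterol exporter, apart and higher (0.91). Cyp7a1, which starts the conversion of cholesterol to bile acids, was at 0.35, 40.8 and 76.8 FPKM in restricted and 35.1, 77.9 and 86.8 FPKM in ad libitum libraries. The fatty acid carriers Fabp1 and Fabp2 were called only when restricted ZT6 was left out, with Fabp1 at 1381, 5410 and 2238 FPKM in restricted and 7092, 7392 and 7769 FPKM in ad libitum libraries (-2.08, limma adjusted p = 0.0408).

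Amino acid response genes driven by ATF4 gave a median of 0.43, with 9 of 11 above 0 and 4 apart and higher (background 11.6%). The median was 0.27 without restricted ZT3, the highest library for 7 of the 11 and for 45.7% of all genes. Asns (asparagine synthetase) was at 3.73, 0.80 and 2.13 FPKM in restricted and 0.17, 0.06 and 0.09 FPKM in ad libitum libraries (1.43 ± 0.36, unadjusted p = 0.00248). In the amino acid breakdown list Sdsl, a serine dehydratase-like enzyme, was at 21.6, 7.03 and 14.2 FPKM in restricted and 5.41, 6.08 and 5.49 FPKM in ad libitum libraries. Sult1e1, which sulphates oestrogen and is listed among glucocorticoid receptor targets, was at 17.2, 3.20 and 24.97 FPKM in restricted and 0.63, 0.38 and 0.96 FPKM in ad libitum libraries (2.94 ± 0.87). The classical targets Tsc22d3 and Fkbp5 did not share a direction: Tsc22d3 was at 11.9, 24.2 and 21.4 FPKM in restricted and 31.0, 20.6 and 25.8 FPKM in ad libitum libraries, and Fkbp5 at 41.4, 8.52 and 15.4 FPKM against 8.72, 8.44 and 11.5 FPKM.

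Female-biased genes gave a median of -0.89, with 1 of 6 above 0, and -1.62 to -0.44 on leaving out 1 restricted library. Nrf2 targets had a median of -0.12 (5 of 11 above 0), urea cycle and amino acid breakdown -0.19 (6 of 20), heat shock 0.04 (8 of 14), immediate early genes 0.21 (8 of 12), cell cycle 0.02 (6 of 12) and mitochondrially encoded genes -0.26 (0 of 7). The lipoprotein list's median was 0.13 (10 of 13), interferon 0.17 (14 of 17), male-biased 0.29 (13 of 21) and insulin and fasting response 0.04 (10 of 19). Among cell type lists the medians were -0.07 for hepatocyte, 0.22 for immune, 1.04 for neutrophil, -0.01 for stellate, 0.05 for endothelial, 0.65 for bile duct, -0.15 for adipocyte and -0.50 for erythroid markers. The medians of the cell cycle, heat shock, endothelial, lipoprotein and insulin lists were below 0 with same-sum scaling. Without restricted ZT6 the median was -0.21 for interferon and -0.26 for male-biased genes, and without restricted ZT3 it was 0.04 for urea cycle, 0.05 for Nrf2, 0.10 for hepatocyte, 0.14 for erythroid, -0.24 for neutrophil, -0.51 for stellate, -0.17 for endothelial, 0.05 for bile duct and 0.21 for insulin and fasting response genes. In the cell cycle list Cdkn1a, the p53-driven cycle inhibitor, was at 8.76, 1.20 and 0.39 FPKM in restricted and 0.70, 0.46 and 0.54 FPKM in ad libitum libraries.

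The core clock genes had a median difference of -0.06 (-0.25 with same-sum scaling, -0.15 with the GC and length correction and -0.14 with limma voom on recovered reads), with 6 of 18 above 0, 11 below and Npas2 listed at 0 in all 6 libraries. Arntl (Bmal1) was at 7.24, 3.73 and 3.84 FPKM in restricted and 5.44, 5.52 and 4.93 FPKM in ad libitum libraries (-0.13 ± 0.21), and Nr1d1 (Rev-erb alpha) at 11.2, 11.1 and 12.7 FPKM against 13.1, 12.4 and 8.41 FPKM (0.06 ± 0.18, and -0.14 with same-sum scaling). Dbp, an output factor of the E-box arm, was at 12.8, 41.8 and 45.8 FPKM in restricted and 36.9, 31.3 and 31.0 FPKM in ad libitum libraries, with restricted ZT3 below all others. Of the 18 genes tested 2 were apart between groups (11.1%, against 17.8% of all genes). Hlf, a relative of Dbp, was at 6.89, 13.4 and 12.6 FPKM in restricted and 15.9, 16.1 and 16.3 FPKM in ad libitum libraries (-0.56 ± 0.21, unadjusted p = 0.0208). Per1 was at 10.4, 9.40 and 10.6 FPKM in restricted and 7.37, 5.14 and 6.06 FPKM in ad libitum libraries (0.64 ± 0.17, unadjusted p = 0.00283).

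Per1 is both a target of CLOCK and BMAL1 through the E-box CACGTG and an early gene driven by glucocorticoid and cAMP signals. Its first RefSeq promoter, at chr11:69098699-69098998 on the plus strand of GRCm38.p6, is printed with that E-box in capitals.
Per1: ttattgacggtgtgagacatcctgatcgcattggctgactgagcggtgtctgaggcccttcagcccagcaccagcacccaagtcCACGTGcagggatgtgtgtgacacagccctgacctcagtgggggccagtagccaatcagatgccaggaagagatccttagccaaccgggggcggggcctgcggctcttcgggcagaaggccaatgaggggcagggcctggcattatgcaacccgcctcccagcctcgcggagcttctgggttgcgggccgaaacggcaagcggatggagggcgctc
The E-box was found in 5 of 16 core clock genes with a promoter in the table (31.2%), in 4 of 13 glucocorticoid receptor targets (30.8%) and in 8.09% of 27025 genes.

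Per1 also marked the difference from ReverbLDKO, in which both Rev-erb genes are knocked out in liver, which was sampled at the same 3 times. There Per1 was lower under restriction, at 0.48, 1.24 and 1.72 FPKM as lowest, median and highest, against 4.73, 5.0 and 5.63 FPKM ad libitum. The difference between the feeding effects was 2.19 ± 0.42 (limma over 67 libraries, adjusted p = 0.0181). Sik1, a salt-inducible kinase switched on by cAMP, was at 29.4, 8.24 and 9.19 FPKM in restricted CryDKO and 7.90, 6.82 and 4.84 FPKM in ad libitum CryDKO libraries. In ReverbLDKO it was at 2.07 to 2.37 FPKM restricted and 7.62 to 11.6 FPKM ad libitum, so the feeding effects differed by 2.60 ± 0.48 (adjusted p = 0.0114). Genes taken by the smallest p of this contrast tend to have opposite signs in the genotypes, so the opposite directions are no separate result. Limma called 4 of 9958 genes in this contrast (0.0402%), with 633 at an unadjusted p under 0.05 (6.36%). The others were Gm20528 (2.00) and E030018B13Rik (3.47), named here after their values were seen. In ReverbLDKO, Gm20528 was at 0.18 to 0.45 FPKM restricted and 5.77 to 6.8 FPKM ad libitum. The mitochondrial gene mt-Nd6, of small p but not called, was there at 19.6 to 21.2 against 165 to 201 FPKM. In WT both ran the other way, with Gm20528 at 4.09 to 6.31 FPKM restricted and 0 to 0.31 FPKM ad libitum. The part of library properties in these calls was not tested. Both Per1 and Sik1 had an adjusted p over 0.05 with a pseudocount of 0.1, Per1 also with same-sum scaling, and Sik1 also when only the libraries of the groups compared were fitted (adjusted p = 0.117). Without ad libitum ZT9 neither was called, and Per1 was not without ad libitum ZT6; leaving out 1 of the 6 libraries gave 2 to 51 called genes.

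For several of the 8 genes with the smallest p of light minus dark, the dark-phase feeding difference of the same genotype ran in the other direction. Choosing genes by this contrast favours opposite signs, so the reversal is no separate result. Plin3 was at 7.79 to 9.38 FPKM restricted and 10 to 15.7 FPKM ad libitum at ZT15 to 21, a dark-phase difference of -0.45 ± 0.14, and its light minus dark difference was 1.10 (unadjusted p = 0.000253). Hsdl2 had -0.44 ± 0.10 in the light phase against 0.34 ± 0.10 in the dark phase (unadjusted p = 0.00022 for the difference), and Tsc22d1, a leucine zipper protein induced by TGF-beta, had -1.61 ± 0.40 in the light phase against 1.21 ± 0.40 in the dark phase. Ppp1r14a, Rtn4, Slc35d2, Fam107b and Cpsf4 are the other genes with the smallest p. Limma called 0 of 9958 genes for light minus dark (percent called 0; 1067, or 10.7%, at an unadjusted p under 0.05). By list, the light-phase median against the dark-phase one was 1.65 against -0.78 for acute-phase, -1.02 against 0.05 for xenobiotic, -0.43 against 0.15 for fat oxidation and -0.26 against 0.49 for fatty acid synthesis genes. Other lists had 1 sign in both phases, with 0.55 against 0.29 for ER chaperone, 0.34 against 0.20 for cholesterol synthesis and 0.17 against 0.42 for interferon genes. These are values with no test.

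Against WT, whose light-phase libraries are of ZT4 and ZT8 with 4 per feeding, limma called 1685 of 9958 feeding effects as different (16.9%), and 365 of 9581 after correction for GC content and length. For the 8 genes with the smallest p the larger feeding differences were those of WT. Scand1, a zinc finger cofactor, had a feeding difference of 0.25 ± 0.17 in CryDKO and -4.40 in WT, and mt-Nd6, the light-strand mitochondrial subunit, -0.47 ± 0.24 and 4.11. H2afj, Ccdc85b, Jund, Tpgs1, Rnaseh2c and Junb ran from -0.10 (Rnaseh2c) to 1.09 (Junb) in CryDKO and from -3.30 to -2.35 in WT. For Apoa4 the CryDKO difference of 2.17 stood beside -1.38 in WT (limma, difference 3.54, adjusted p = 0.00373). WT was at 129 to 337 FPKM restricted and 377 to 1032 FPKM ad libitum. In the liver Bmal1 knockout, with 2 libraries per feeding, Apoa4 was higher under restriction, at 591 to 599 against 178 to 204 FPKM. In ReverbLDKO it was lower, at 240 to 355 against 411 to 458 FPKM. Times differ between WT and CryDKO, so a time effect cannot be told apart from genotype here. Library properties also differed with feeding in WT, and their part in these differences was not tested. Scand1 was at 0 to 0.37 FPKM in restricted and 17.7 to 34.7 FPKM in ad libitum WT libraries. There mt-Nd6 was at 138 to 298 FPKM restricted and 6.46 to 17.4 FPKM ad libitum.

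**Figure D4:**
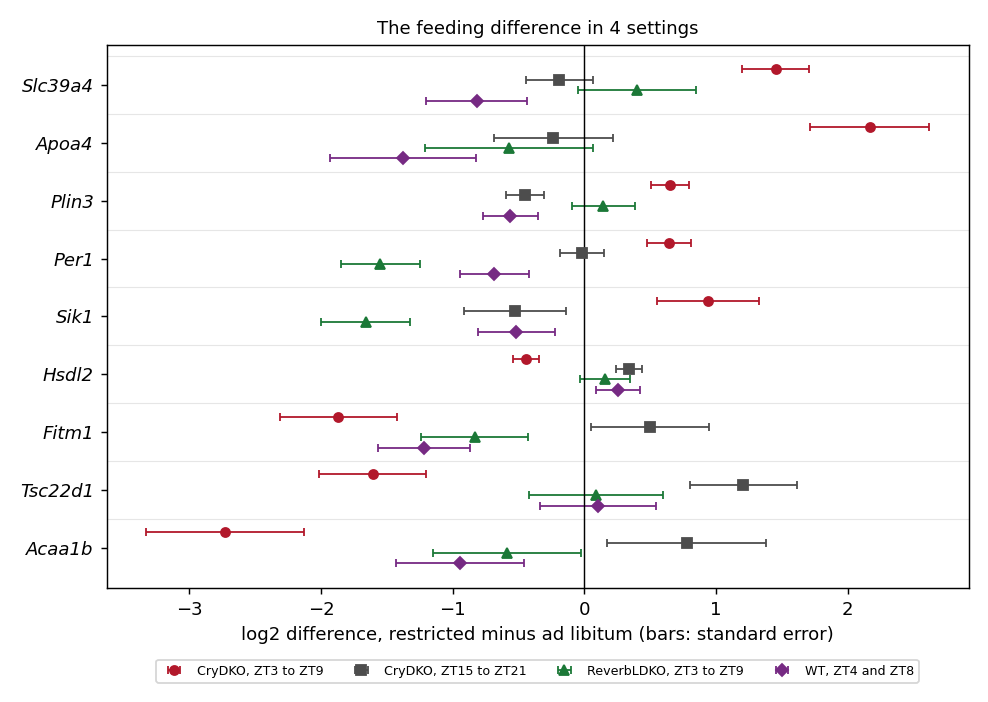
Feeding difference (log2, restricted minus ad libitum, with standard error) of 9 genes in CryDKO of ZT3 to 9 and ZT15 to 21, ReverbLDKO of ZT3 to 9 and WT of ZT4 and ZT8. Per1 and Sik1 lie above 0 in light-phase CryDKO at 0.64 and 0.94 and below 0 in ReverbLDKO at -1.55 and -1.66. Both are among the genes with the smallest p of that difference, a choice that favours opposite signs.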

How the data were processed

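Liver polyA RNA was measured in 67 libraries, 6 of them described here. The authors deposited FPKM values per gene; the submitters' processing notes name STAR, featureCounts, DESeq2 and GRCm38, and the strand setting of the counting is not given in the sources used here. Of 45808 gene rows, 9958 averaged 1 FPKM or more and were tested on log2(FPKM + 1) with limma 3.58.1 in R 4.3.3 (empirical Bayes with a trend, Benjamini-Hochberg adjustment over all genes, threshold 0.05). The fit took the 16 CryDKO libraries, with 1 level per feeding and time window; differences between genotypes came from a fit over 67 libraries. Read depth was recovered from the steps of low FPKM values, within 0.1 read. The script was tested on simulated data. Sums of FPKM over a list were compared by an exact permutation test. Named genes were, among those with a mean of at least 5 FPKM, the 12 with the smallest p in each direction and the 8 with the smallest p per difference of effects, with the core clock genes and up to 4 members of each list with the largest difference. Further list members, such as Fasn, Ppara, Pnpla2 and Cdkn1a, and Nnmt, Fabp1, Fabp2, Gm20528 and E030018B13Rik, were named after their values were seen. A few selected genes are not reported here. Members and lists were chosen with earlier results of these data known. Alternatives were planned, except median-of-ratios scaling of the list sums, which was chosen after seeing the data.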

Additional observations from a re-analysis of the deposited data

Results flagged for a closer look

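The feeding effect in light-phase CryDKO libraries differed from that in ReverbLDKO for 4 genes by a test of the difference itself (limma over 67 libraries). The part of library properties in these calls was not tested. The differences were 2.00 for Gm20528, 2.19 for Per1, 2.60 for Sik1 and 3.47 for E030018B13Rik on the log2 scale. For the last 3, CryDKO values were higher and ReverbLDKO values lower under restriction, a pattern that choosing genes by this contrast favours and that is no separate result. Gm20528 was lower in both genotypes, at -0.49 in CryDKO and -2.50 in ReverbLDKO.

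The same test against WT gave 1685 genes. The named differences were 2.84 for H2afj, -4.57 for mt-Nd6, 4.65 for Scand1, 3.39 for Ccdc85b, 3.39 for Jund, 3.60 for Tpgs1, 2.77 for Rnaseh2c and 3.79 for Junb. After correction for GC content and length 365 genes were called. Library properties differed with feeding in WT, and their part in these calls was not tested. Dixon's test for a single outlying sample was not run, since each group holds 3 libraries.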

How the results depend on the processing

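No paired analysis was possible because the labels pair no libraries by replicate number, every CryDKO library carrying the same one. Restricted and ad libitum libraries do share their time points, and fits with time points as categories called 0 genes, with 1234 at an unadjusted p under 0.05 in the 16 libraries and 617 in the 6. The count of called feeding effects was 0, and 13 without the filter on low values, 20 with all 67 libraries in the fit and 0 to 5 on leaving out 1 library. At an unadjusted p under 0.05 there were 1142 genes, and 1953 without the filter, 700 with only the 6 libraries and 584 to 1852 on leaving out 1 library. For light minus dark, 13 were called without the filter, with 1809 at an unadjusted p under 0.05 and 655 to 1484 on leaving out 1 library. Against ReverbLDKO the count of 4 was 1 with a pseudocount of 0.1, 11 without the filter, 8 with same-sum scaling, 9 with the GC and length correction, 9 with only the groups compared and 2 to 51 on leaving out 1 library; the unadjusted count of 633 was 1928 without the filter, 1396 with only the groups compared and 333 to 1005 on leaving out 1 library. Against WT the count of 1685 was 365 with the GC and length correction and 1021 to 1766 on leaving out 1 library; the unadjusted count of 3092 was 4985 without the filter and 1734 with the correction. The cause was not tested.

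Of single genes, library weights turned Per3 (0.24), Dbp (0.31), Nfil3 (-0.26), Cyp8b1 (0.064), S100a8 (-0.026), Lyve1 (-0.22) and Pecam1 (-0.14), and same-sum scaling turned Nr1d1 (-0.14), Nr1d2 (-0.21), Rora (-0.17) and Ciart (-0.084). Leaving out 1 library gave ranges through 0 of -0.26 to 0.27 for Per3, -0.12 to 0.17 for Nr1d1, -0.48 to 0.40 for Dbp, -0.28 to 0.29 for Nfil3, -1.36 to 0.28 for Cyp8b1, -0.023 to 0.80 for Ccnd1, -0.27 to 1.95 for S100a9, -0.24 to 1.73 for S100a8, -0.12 to 1.45 for Retnlg, -0.78 to 0.003 for Dcn, -0.62 to 0.13 for Lum, -0.28 to 0.87 for Lyve1, -0.16 to 0.29 for Pecam1, -0.30 to 0.052 for Cidec, 0 to 3.80 for Clps. With same-sum scaling the restricted minus ad libitum differences of the list sums were -48.7 FPKM for core clock, -1318 for fatty acid synthesis, 53.6 for insulin and fasting response, -331 for lipid droplet, 35.5 for ATF4, -7506 for mitochondrially encoded and -2.30 for immune genes; fatty acid synthesis gave -1432 to -872 on leaving out 1 library. In all, 26 values of named genes changed sign by more than the standard error of the main fit, 22 came to pass the threshold and 7 no longer passed it. The other 2983 did none of these, and changes of sign within that error are counted among them. Without restricted ZT3, 1 gene was called and 977 had an unadjusted p under 0.05. What limits the calls, spread or depth, was not tested.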
